A study of Mus musculus with 4 samples.

Results

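Myh11, Mylk, Lpp, Actn3 and Popdc2 encode contractile or muscle-enriched proteins. They were chosen by gene symbol from the 36186 rows of the deposited table, and all 5 symbols were found, each in 1 row. RNA had been sequenced from cells of the kidney-ureter junction of SV/129 mouse embryos of the genotype PTC-/-MM at E13.5. Antibody staining for PTC2 and flow sorting had split these cells into PTC2+ and PTC2− populations, and each gave 2 libraries, named replicate 1 and replicate 2. PTC2 is a hedgehog receptor of the patched family. Both populations came from the same mutant genotype, so the comparison sets sorted populations against each other and not mutant against normal tissue. The driver of the mutation is not given in the labels, and neither is whether different embryos went into the libraries of 1 population. A p-value therefore covers the spread among libraries alone.

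Smooth muscle contracts when myosin light chain kinase, the product of Mylk, phosphorylates the regulatory light chain of a myosin whose heavy chain is encoded by Myh11. Contractile filaments are anchored by alpha-actinins at Z discs and dense bodies, and at focal adhesions by proteins such as LPP. In the ureter, the mesenchyme around the epithelial tube forms a coat of smooth muscle in response to hedgehog ligand from that epithelium, and contraction of this coat carries urine from the kidney. In the mouse this coat matures later in gestation than the stage sampled here.

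Values are normalized RPKM (NRPKM), which are scaled by gene length and library size and can be compared between genes as levels. Outside 3 chromosome stretches the gene names of the table cannot be relied on, and the row named for Eef1a1, a translation factor that every cell uses, is listed near 0. The stretches hold 1303 rows and were taken as Naa60 to Mrps6 (chromosome 16), Ighmbp2 to Pygm (chromosome 19) and Insr to Agpat5 (chromosome 8). Actn3 lies in the stretch on chromosome 19 and the other 4 genes in that on chromosome 16. Of 29 other muscle genes looked for, 0 lie in a stretch, and their rows are not read here. The columns summed to between 283806 and 288752 NRPKM per library. A single read in 1 kb of transcript was worth an estimated 0.645 to 0.877 NRPKM, and depth is known only through this estimate.

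The genes of the muscle set covered a wide range of levels. In PTC2+ replicates 1 and 2 and in PTC2− replicate 2 the order was Lpp, Mylk, Actn3, Myh11 and Popdc2, and in PTC2− replicate 1 Mylk stood above Lpp. Over the 4 libraries Lpp averaged 84.5 NRPKM, above 80.9% of the 829 protein-coding rows of the stretches, and Mylk averaged 71.0 NRPKM, above 76.6% of them. Actn3 averaged 37.6 NRPKM, Myh11 5.69 NRPKM, above 34.3% of these rows, and Popdc2 0.597 NRPKM. The levels of Lpp and Mylk overlapped across libraries, and the highest level of Actn3, 62.9 NRPKM, exceeded the lowest of Mylk, 51.3 NRPKM. Myh11 lay below Actn3 and above Popdc2 in every library.

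**Figure D1:**
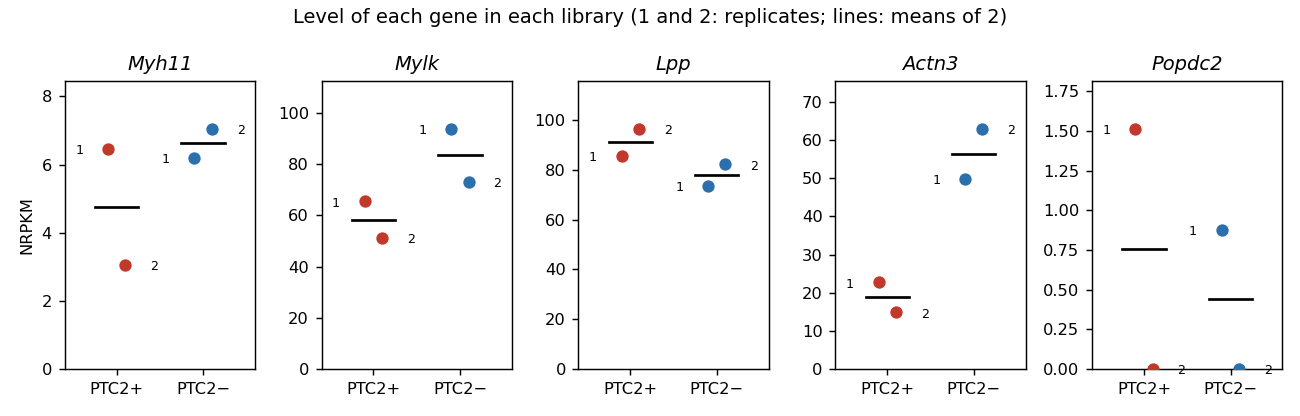
Level of each gene in NRPKM (vertical axes start at 0 and differ between panels) in the 2 PTC2+ and 2 PTC2− libraries; points are libraries and lines are means. Both PTC2+ libraries lay below both PTC2− libraries for Mylk and Actn3 and above them for Lpp, and the populations overlapped for Myh11 and Popdc2.

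Myh11 encodes the smooth muscle myosin heavy chain, the motor of the contractile apparatus and a late marker of differentiated smooth muscle. Its levels were 6.47 and 3.05 NRPKM in PTC2+ replicates 1 and 2, against 6.21 and 7.04 NRPKM in PTC2− replicates 1 and 2. The populations overlapped, because only PTC2+ replicate 2 lay below both PTC2− libraries. With its longest annotated transcript of 6549 bases, these values stand for an estimated 49.3 and 24.4 reads in the PTC2+ libraries, against 63.0 and 52.6 reads in the PTC2− libraries. In such bulk samples, fewer cells of a type and less RNA per cell cannot be told apart. The test was limma on log2(NRPKM + 1), over the 11807 rows that reached 1 NRPKM in 2 or more libraries. Adjusted p-values are Benjamini-Hochberg values over those rows, read at a threshold of 0.05. The log2 difference, PTC2+ minus PTC2−, of Myh11 was -0.47 (SE 0.45, 95% interval -1.59 to 0.66, adjusted p = 0.638). The difference was -0.027 without PTC2+ replicate 2 and -0.91 without PTC2+ replicate 1.

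Mylk encodes the kinase that switches smooth muscle myosin on, in a long and a short form, and also telokin, a small protein made from the end of the gene. A value for the whole gene does not tell these products apart. The gene had 65.6 and 51.3 NRPKM in PTC2+ replicates 1 and 2, against 93.8 and 73.3 NRPKM in PTC2− replicates 1 and 2. Both PTC2+ libraries lay below both PTC2− libraries, but the nearest pair, PTC2+ replicate 1 and PTC2− replicate 2, differed only 1.12-fold. The log2 difference was -0.51 (SE 0.21, 95% interval -1.03 to 0.01) and did not pass (limma unadjusted p = 0.0549, adjusted p = 0.263). Within each population the replicate numbered 1 stood above the replicate numbered 2.

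Lpp encodes a LIM-domain protein of focal adhesions that is abundant in smooth muscle and also travels to the nucleus. It was the only one of the 4 tested genes with a positive difference. Its levels were 85.7 and 96.3 NRPKM in PTC2+ replicates 1 and 2, against 73.6 and 82.2 NRPKM in PTC2− replicates 1 and 2. The populations did not overlap, with PTC2+ replicate 1 and PTC2− replicate 2 only 1.04-fold apart. The log2 difference was 0.22 (SE 0.16, 95% interval -0.18 to 0.62, limma adjusted p = 0.514). This interval is narrower than that of Myh11.

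Mylk and Lpp lie on the same chromosome at similar levels, and their differences had opposite signs. Since both are read from the same library, their ratio does not depend on how a library was scaled. The level of Mylk divided by that of Lpp was 0.765 and 0.532 in PTC2+ replicates 1 and 2, against 1.27 and 0.891 in PTC2− replicates 1 and 2. Both ratios in PTC2+ cells thus lay below both in PTC2− cells. The levels already fixed this order, since neither gene overlapped and their differences had opposite signs, so it is no further result. With 2 libraries against 2, the smallest p that an exact two-sided permutation test of such a ratio can give is 0.333. The ratio of Myh11 to Mylk, motor to kinase, overlapped between the populations, at 0.0987 and 0.0595 in PTC2+ libraries against 0.0662 and 0.0961 in PTC2− libraries.

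Of the muscle genes 3 matched the RefSeq promoter table of GRCm38.p6 by gene identifier. The 250 bases before the listed start of Mylk (chr16:34784700-34784949, plus strand) and before the most upstream listed start of Lpp (chr16:24393100-24393349, plus strand) are shown, as Mylk and Lpp had the highest levels of the set. Capitals mark the letters CATTCC, the core of the MCAT element of muscle promoters.
Mylk: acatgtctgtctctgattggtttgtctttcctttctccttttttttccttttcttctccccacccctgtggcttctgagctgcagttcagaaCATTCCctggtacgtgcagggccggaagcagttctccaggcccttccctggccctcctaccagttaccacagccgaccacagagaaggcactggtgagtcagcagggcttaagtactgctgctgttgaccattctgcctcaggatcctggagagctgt
Lpp: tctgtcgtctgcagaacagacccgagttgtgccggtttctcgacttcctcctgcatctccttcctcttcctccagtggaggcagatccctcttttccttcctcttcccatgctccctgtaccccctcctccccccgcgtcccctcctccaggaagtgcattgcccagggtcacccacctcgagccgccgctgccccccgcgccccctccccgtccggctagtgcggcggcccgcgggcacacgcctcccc
The Mylk sequence lies inside the annotated span of the gene, which also has an earlier start. It held CATTCC 158 bases before the listed start, and the Lpp sequence held no match on either strand. Of 32851 listed promoters, 12.6% held CATTCC on either strand in these 250 bases. The CArG box bound by serum response factor was found in neither sequence and in 1.47% of all promoters. The letters CANNTG, the E-box of the myogenic regulators, were also found in neither, against 66.2% of all, and TATAAA in neither, against 12.4% of all. The Lpp sequence was 67.6% G and C and the Mylk sequence 53.6%. The other listed start of Lpp and that of Popdc2 each had CATTCC once in the same window, and Popdc2 also had CANNTG once. Every search read both strands, and no motif searched contains another. A match describes letters only and is not a bound site.

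Actn3 encodes the alpha-actinin that crosslinks actin at the Z discs of fast skeletal muscle fibres, and it gave the widest separation of the muscle genes. Its levels were 22.7 and 14.9 NRPKM in PTC2+ replicates 1 and 2, against 49.9 and 62.9 NRPKM in PTC2− replicates 1 and 2. Every PTC2+ library lay below every PTC2− library, and the nearest pair, PTC2+ replicate 1 and PTC2− replicate 1, differed 2.20-fold. The mean was 18.8 ± 5.53 NRPKM in PTC2+ cells and 56.4 ± 9.25 NRPKM in PTC2− cells (SD, n = 2 each), so that the mean in PTC2+ cells was 0.333 of that in PTC2− cells. With the transcript of 2887 bases, this stands for an estimated 76.3 and 52.5 reads in PTC2+ libraries, against 223 and 207 reads in PTC2− libraries.

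The log2 difference of Actn3 was -1.56 (SE 0.27, 95% interval -2.23 to -0.88, limma unadjusted p = 0.00150). Adjusted over the table it missed the threshold by a narrow margin (adjusted p = 0.0508), and adjusted over the 711 tested rows of the stretches it passed (adjusted p = 0.0237). Of the 637 tested protein-coding rows of the stretches, 5 had a lower difference. The ratio of Actn3 to Lpp was 0.265 and 0.154 in PTC2+ libraries, against 0.678 and 0.765 in PTC2− libraries. This ratio could not overlap, since neither gene did and their differences had opposite signs. The ratio of Actn3 to Mylk did not overlap, at 0.346 and 0.290 in PTC2+ libraries against 0.531 and 0.859 in PTC2− libraries. How often ratios of other genes fail to overlap was not counted, so neither ratio is a further result. With any 1 of the 4 libraries left out Actn3 passed neither adjustment, and its log2 difference stayed between -1.84 and -1.27.

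Popdc2 encodes a Popeye-domain protein, a membrane protein of heart and skeletal muscle that binds cyclic AMP. The 2 PTC2+ libraries gave 1.51 and 0 NRPKM, against 0.877 and 0 NRPKM in the 2 PTC2− libraries, each pair given as replicate 1 and then replicate 2. It was detected in the replicate numbered 1 of each population and listed at 0 in the replicate numbered 2 of each. The values above 0 stand for an estimated 3.8 and 3.0 reads, so a difference between the populations was not detectable at this depth. Popdc2 reached 1 NRPKM in 1 library only and was not tested. It was thus the only gene of the set to miss the filter on low values.

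By the adjustment over all rows, 2.92% of those tested changed, with 2.44% higher and 0.483% lower in PTC2+ cells, and 0 of the 4 tested muscle genes did. An unadjusted limma p under 0.05 was reached by 1 of the 4, Actn3, against 19.8% of rows tested over the table and 27.3% of those of the stretches (17.4% higher, 9.85% lower), so this count is near the background. Within the stretches 11.1% of tested rows changed by the adjustment over stretch rows, 9.14% higher and 1.97% lower, and 1 of the 4 genes, Actn3, did, as lower. For 3 of the 4 the populations did not overlap, against 59.6% of tested stretch rows (30.2% higher, 29.4% lower), and the lack of overlap by itself is no result about these genes. The median log2 difference was -0.49 for the 4 tested genes and -0.027 for all tested stretch rows.

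**Figure D2:**
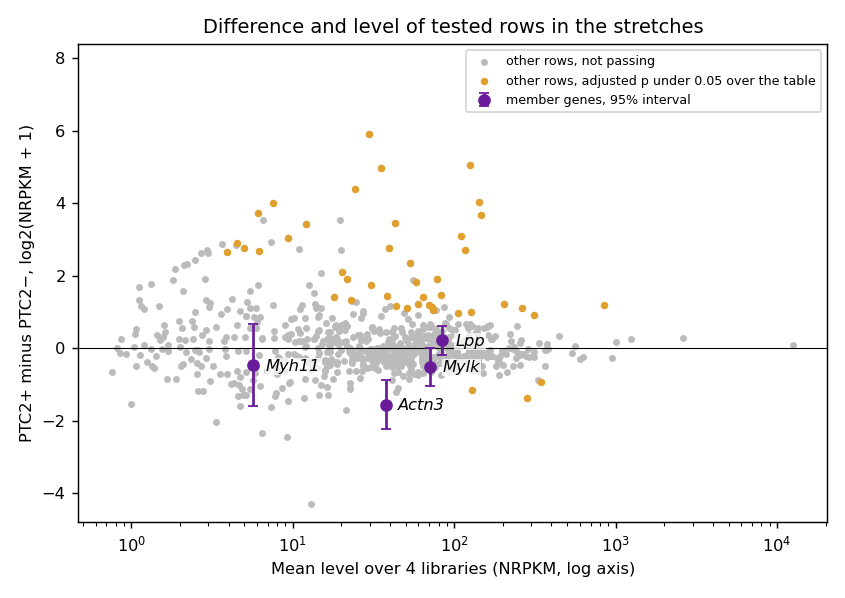
Difference between the populations (PTC2+ minus PTC2−, log2(NRPKM + 1), vertical axis) against the mean level over 4 libraries (NRPKM, log axis) for the 711 tested rows of the stretches; bars on the 4 tested muscle genes are 95% intervals. Actn3 lies at -1.56 near the lower edge of the cloud at its level, while the intervals of Myh11, Mylk and Lpp cross 0.

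Markers of other cell types were also read, and they did not all differ between the populations. The summed level of 6 mesenchymal and stromal markers (Snai2, Cd248, Ccdc80, Robo2, Lrrc15 and Boc) was 423 and 323 NRPKM in PTC2+ libraries, against 828 and 810.1 NRPKM in PTC2− libraries, and 2 of the 6, Snai2 and Cd248, fell over the table. That of 9 myeloid markers was 814 and 731 NRPKM in PTC2+ libraries, against 53.3 and 57.2 NRPKM in PTC2− libraries, where Cd86, Cd200r1 and Stfa2l1 were listed at 0, and 7 of the 9 rose. Of the 711 tested stretch rows 6.19% changed over the table, 41 as higher and 3 as lower in PTC2+ cells. The sums of 7 epithelial markers were 229.9 and 214 NRPKM in PTC2+ libraries, against 116 and 108 NRPKM in PTC2− libraries, where Upk1b was listed at 0. In PTC2+ libraries Upk1b stood at only 0.971 and 0.462 NRPKM. Of the 7, 5 were tested and 1, Cldn8, rose. Much of the gap between the sums was Cldn8, at 86.3 and 71.4 NRPKM in PTC2+ libraries against 7.93 and 4.84 NRPKM in PTC2− libraries. Of the 5 tested, 4 had a positive difference, and Cxadr overlapped with a negative one (log2 difference -0.12). Of 6 neuronal markers 3 were tested and 0 changed. All 3 had an unadjusted limma p under 0.05, as lower, against 9.85% of tested stretch rows. The sums of the 6 were 10.6 and 23.9 NRPKM in PTC2+ libraries, against 47.7 and 41.5 NRPKM in PTC2− libraries, with Sst listed at 0 in every library. The sums of 6 endothelial markers overlapped, at 751 and 658 NRPKM in PTC2+ libraries against 652 and 692 NRPKM in PTC2− libraries, and 0 of the 6 changed, with 1 higher (Efnb2) and 1 lower (Jam2) at an unadjusted limma p under 0.05, near the 27.3% of tested stretch rows. With 1 library left out, Snai2 and Cd248 passed in no case (limma adjusted p between 0.134 and 0.253). Without either PTC2+ library 0 of the 9 myeloid markers and not Cldn8 passed, and without either PTC2− library 4 of the 9 and Cldn8 did. The gene Tagln3 stands in both the neuronal and the actomyosin list. The part of these cell types in the difference of Actn3 was not tested.

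Differences of other muscle and actomyosin genes of the stretches had both signs. Of 7 genes of striated muscle 5 were tested, and 1 changed over the table, as higher in PTC2+ cells. This was Ehbp1l1, an adaptor of endosomal membrane tubules which stood at 98.9 and 88.0 NRPKM in PTC2+ libraries, against 35.5 and 33.9 NRPKM in PTC2− libraries (limma adjusted p = 0.0239). Its role is not confined to muscle. The share of all tested stretch rows that changed over the table was 6.19%. An unadjusted limma p under 0.05 was reached by 2 of the 5 tested genes with a positive and 1 with a negative difference. For tested stretch rows these shares were 17.4% and 9.85%. Pygm, the glycogen phosphorylase of muscle, stood at 47.1 and 33.0 NRPKM in PTC2+ libraries, against 58.7 and 70.7 NRPKM in PTC2− libraries (log2 difference -0.69, limma adjusted p = 0.191). Srl, which encodes the calcium-binding sarcalumenin of the sarcoplasmic reticulum, overlapped at 32.9 and 52.2 NRPKM in PTC2+ libraries against 49.1 and 46.0 NRPKM in PTC2− libraries. Fbxo40, a muscle ubiquitin ligase subunit, stood at 14.1 and 3.35 NRPKM in PTC2+ libraries, against 0.243 and 0 NRPKM in PTC2− libraries (limma adjusted p = 0.0997). The 4 tested genes of this list other than Ehbp1l1 therefore gave 3 negative differences and 1 positive, none of which passed.

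Of 13 genes of actomyosin regulation, all tested, 0 changed over the table, against 6.19% of tested stretch rows. The median log2 difference of the 13 genes was 0.27. Without adjustment, a limma p under 0.05 was reached by 3 with a positive and 2 with a negative difference, against 17.4% and 9.85% of tested stretch rows. By the adjustment over stretch rows 1 of the 13 was lower in PTC2+ cells, against 1.97% of tested stretch rows. That gene, Rhod, encodes a small GTPase of endosomes and actin and is named because of this result. It stood at 33.5 and 23.1 NRPKM in PTC2+ libraries, against 65.8 and 57.0 NRPKM in PTC2− libraries (limma adjusted p = 0.0433 over stretch rows and 0.0804 over the table, but between 0.228 and 0.295 over the table with any 1 library left out). Cfl1, the actin-severing cofilin, was the most abundant, at 3074 and 2647 NRPKM in PTC2+ libraries against 2362 and 2361 NRPKM in PTC2− libraries. Ppp1ca, a catalytic subunit of protein phosphatase 1, overlapped at 1239 and 887 NRPKM in PTC2+ libraries against 1059 and 803 NRPKM in PTC2− libraries. Pak2, a kinase that acts on myosin light chain kinase, stood at 183 and 179 NRPKM in PTC2+ libraries against 154 and 128 NRPKM in PTC2− libraries, and Filip1l, a filamin A-interacting protein relative, at 126 and 131 NRPKM in PTC2+ libraries against 70.5 and 91.3 NRPKM in PTC2− libraries (limma adjusted p = 0.272 and 0.124). Mkl2, also called MRTF-B, a coactivator of serum response factor at contractile genes, was named after its values were seen, for that role. It stood at 86.9 and 98.9 NRPKM in PTC2+ libraries, against 103 and 108 NRPKM in PTC2− libraries, without overlap (log2 difference -0.18, 95% interval -0.56 to 0.19, limma adjusted p = 0.579).

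Of 10 genes of smooth muscle and vessel wall, all tested, 2 changed over the table, both higher in PTC2+ cells. Of all tested stretch rows 6.19% changed over the table in either direction. Without adjustment, a limma p under 0.05 was reached by 2 of the 10 with a positive and 2 with a negative difference. The shares of tested stretch rows were 17.4% and 9.85%. The median log2 difference of the 10 genes was -0.27. Itgb5, an integrin subunit that binds vitronectin, stood at 129 and 113 NRPKM in PTC2+ libraries, against 43.2 and 43.5 NRPKM in PTC2− libraries (limma adjusted p = 0.0210). Adrbk1, a kinase that desensitises adrenergic receptors, stood at 94.5 and 102 NRPKM in PTC2+ libraries, against 38.8 and 45.6 NRPKM in PTC2− libraries (limma adjusted p = 0.0321). Neither gene is restricted to muscle. Fstl1, a secreted follistatin-like glycoprotein, overlapped at 980 and 755 NRPKM in PTC2+ libraries against 1177 and 900 NRPKM in PTC2− libraries. Efemp2, the fibulin needed for elastic fibres, stood at 135 and 84.0 NRPKM in PTC2+ libraries, against 196 and 145 NRPKM in PTC2− libraries, and did not pass (limma adjusted p = 0.269). Ehbp1l1, Itgb5 and Adrbk1 lost their calls over the table with any 1 library left out, with no filter on low values and with no mean-variance trend (limma adjusted p up to 0.259).

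**Figure D3:**
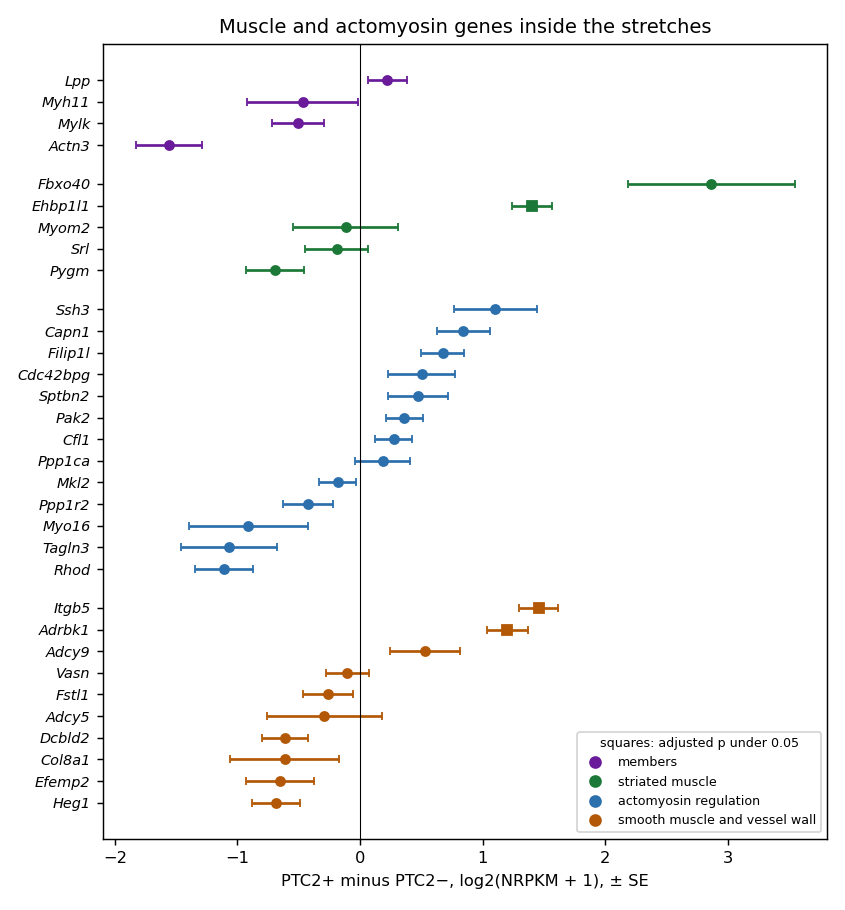
Difference between the populations (PTC2+ minus PTC2−, log2(NRPKM + 1)) for the tested muscle and actomyosin genes of the stretches; bars are standard errors and squares mark adjusted p under 0.05 over the table. The 3 squares, Ehbp1l1, Itgb5 and Adrbk1, lie above 0, and Actn3 has the lowest value shown.

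Genes next to the muscle genes on their chromosomes were read for comparison. Actn3 lies between Ctsf, a lysosomal cathepsin, and Zdhhc24, a palmitoyltransferase, and overlaps neither in the GRCm38 annotation. The difference of Ctsf had the opposite sign, with 138 and 103 NRPKM in PTC2+ libraries against 64.8 and 66.4 NRPKM in PTC2− libraries (log2 difference 0.85, limma adjusted p = 0.0882 over the table and 0.0473 over stretch rows, but between 0.235 and 0.311 over the table with any 1 library left out). Zdhhc24 stood at 63.7 and 68.6 NRPKM in PTC2+ libraries against 62.9 and 53.6 NRPKM in PTC2− libraries. Of the 16 tested protein-coding rows nearest to Actn3, 8 on each side, 0 changed over the table in limma and 3 had an unadjusted p under 0.05 (against 27.3% of tested stretch rows), and their log2 differences lay between -0.66 and 1.16. That of Actn3, at -1.56, lay outside this range. Only 5 of the 637 tested protein-coding rows of the stretches had a lower difference, so this says little about the neighbours.

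Lpp lies beside Bcl6, a transcriptional repressor that was higher in PTC2+ cells, at 44.4 and 51.3 NRPKM in PTC2+ libraries against 14.2 and 12.6 NRPKM in PTC2− libraries (log2 difference 1.76, limma adjusted p = 0.0251, but between 0.134 and 0.244 with any 1 library left out). On its other side Tprg was listed at 0 in both PTC2+ libraries and PTC2− replicate 1. The median log2 difference of the 16 tested protein-coding rows nearest to Lpp was 0.48, and 3 of them changed over the table, against 6.19% of tested stretch rows. For Mylk, 2 of 16 changed, with a median of -0.10. Ccdc14 before it stood at 12.5 and 14.8 NRPKM in PTC2+ libraries against 20.3 and 15.7 NRPKM in PTC2− libraries, and Ptplb after it at 67.9 and 61.2 NRPKM in PTC2+ libraries against 58.0 and 63.4 NRPKM in PTC2− libraries. For Myh11, 1 of 16 changed, with a median of -0.13, and the centrosomal gene Nde1 before it stood at 74.5 and 81.0 NRPKM in PTC2+ libraries against 83.2 and 61.2 NRPKM in PTC2− libraries. Fopnl, after Myh11, stood at 107 and 90.8 NRPKM in PTC2+ libraries against 115 and 95.4 NRPKM in PTC2− libraries. Around Popdc2, 0 of 16 changed in limma, with 2 at an unadjusted p under 0.05. At that unadjusted p were also 7 of the 16 rows around Lpp, 5 of those around Mylk and 3 of those around Myh11, against 27.3% of tested stretch rows. Beside Popdc2, Cox17 stood at 52.6 and 21.8 NRPKM in PTC2+ libraries against 53.0 and 29.0 NRPKM in PTC2− libraries, and Pla1a at 0.792 and 4.10 NRPKM in PTC2+ libraries against 0 in both PTC2− libraries.

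**Figure D4:**
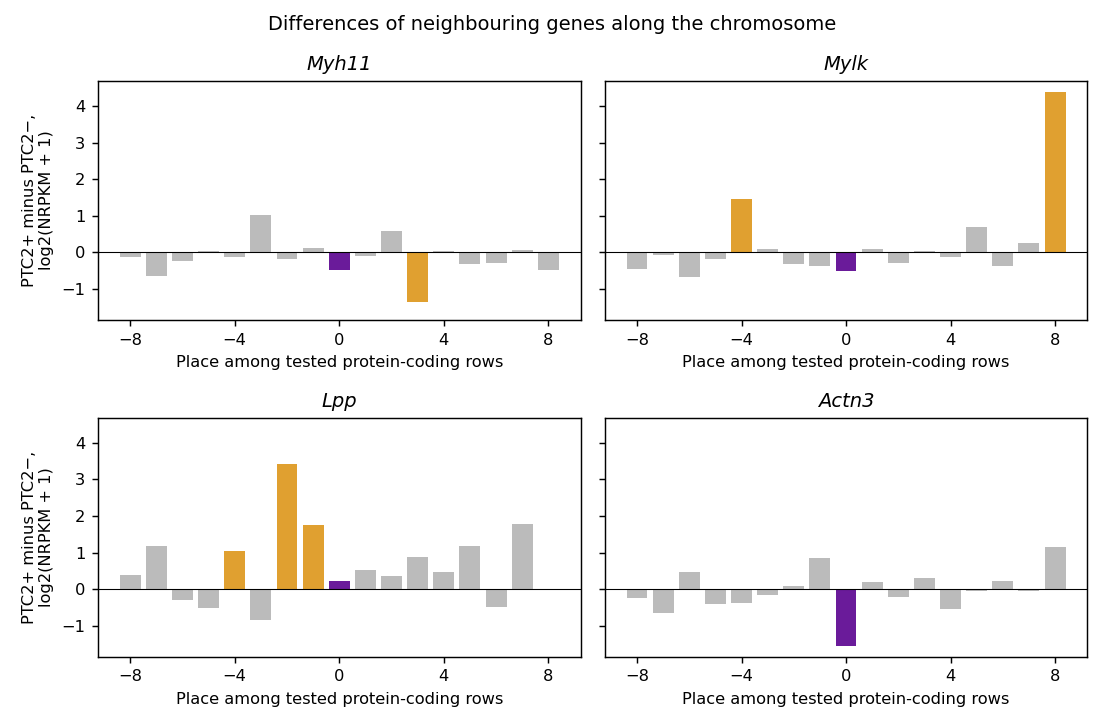
Difference between the populations (PTC2+ minus PTC2−, log2(NRPKM + 1)) for Myh11, Mylk, Lpp and Actn3 (place 0, purple) and the 8 tested protein-coding rows on each side in chromosome order; orange bars have adjusted p under 0.05 over the table. Actn3 is the most negative row of its window, and the differences of Myh11, Mylk and Lpp lie within the range of their neighbours.

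Genes annotated inside Mylk and Lpp could share reads with them, since the counting is not stated to use strand. In Mylk, the antisense noncoding RNA E130310I04Rik stood at 9.03 and 3.80 NRPKM in PTC2+ libraries, against 11.1 and 13.8 NRPKM in PTC2− libraries (limma adjusted p = 0.322), and 1700119H24Rik at 1.35 and 5.40 NRPKM in PTC2+ libraries against 7.84 and 4.15 NRPKM in PTC2− libraries. In Lpp, the transcribed pseudogene A730098P11Rik stood at 191 and 163 NRPKM in PTC2+ libraries against 211 and 199 NRPKM in PTC2− libraries, above Lpp itself and with the opposite sign (log2 difference -0.21, limma adjusted p = 0.493). It is a pseudogene of Morf4l1, so its reads may also be shared with that gene. The RNA 1110054M08Rik, which overlaps Lpp on the opposite strand, stood at 30.7 and 9.84 NRPKM in PTC2+ libraries against 7.82 and 19.6 NRPKM in PTC2− libraries, and Mir28 was listed at 0 in every library. The values of Mylk and Lpp are uncertain by whatever share of these reads was counted for them.

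Genes with the profile most like each muscle gene were sought among 633 other tested protein-coding rows of the stretches, by the Euclidean distance between centred log2(NRPKM + 1) profiles over the 4 libraries. Nearest to Actn3 was Snai2, a transcription factor of mesenchymal cells, at 172 and 141 NRPKM in PTC2+ libraries against 367 and 441 NRPKM in PTC2− libraries (distance 0.290). Next was the ephrin receptor Epha3, at 3.10 and 2.96 NRPKM in PTC2+ libraries against 10.6 and 12.6 NRPKM in PTC2− libraries (distance 0.386). Nearest to Mylk were Ncbp2, a subunit of the nuclear cap-binding complex (distance 0.0516), and Abhd10 (0.0980). Nearest to Lpp were Mcoln1, a lysosomal cation channel (0.120), and Ephb3, an Eph receptor (0.121). Nearest to Myh11 were Rfc4, a subunit of the clamp loader of DNA replication (0.0886), and Lamp3 (0.157). With 4 libraries such distances describe a shape only.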

How the data were processed

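Amplification used the NuGEN Ovation system and library preparation Nextera XT, per the labels' protocols. The build mm9 and the tools Cufflinks 2.0.0, TopHat and TopHat2 2.0.5 are listed per the submitters' processing notes. Which tool counted reads, whether strand was used and the gene models are not given in the sources used here. Values are as the authors deposited them: normalized RPKM per the file headers, without the formula of the further normalization. The stretches, the muscle genes and all lists were chosen with earlier results of these data known.

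The fit was limma 3.58.1 in R 4.3.3 with a mean-variance trend and a pseudocount of 1. It was also run on simulated data with independent noise for each row and library. That run does not cover effects shared by the rows of a library. The fold scale understates changes of low genes. Alternatives changed the pseudocount (0.1 or 5), the filter (none or 5 NRPKM), the trend, the scaling (median centring or quantile normalization), the rows fitted or adjusted over, a replicate block and each library left out.

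The value of 1 read was estimated from pseudogenes and receptor or predicted genes under 3000 bases as the most common low value times length. Between 17 of 158 and 41 of 217 low values per library lay within 0.5% of it, so read numbers are approximate. Reads per gene use the longest GENCODE transcript.

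Of 36186 row identifiers 32912 matched the GRCm38 gene table, which served for gene class, names and overlaps; row order is the table's own. Mkl2 and Rhod apart, named list genes are the 4 with the highest mean level in each list, plus neighbours, overlapping genes and the 2 nearest profiles of each gene. The windows of 8 rows and the ratios were chosen after seeing the data. In the lists, Mrtfb and Grk2 are other names of Mkl2 and Adrbk1.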

Additional observations from a re-analysis of the deposited data

How the results depend on the processing

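Of 56 alternative values of the 4 tested muscle genes, 51 kept their side of the threshold, 5 crossed it and 0 turned direction; Mylk, Lpp and Actn3 could not turn with a library left out, since their populations did not overlap. Myh11, Mylk and Lpp passed in none of 14 settings. Actn3 passed with a pseudocount of 5 (log2 difference -1.38, limma adjusted p = 0.0463), a filter of 5 NRPKM (-1.56, adjusted p = 0.0390) and median centring (-1.62, adjusted p = 0.0462). It also passed with a fit on stretch rows alone (-1.56, adjusted p = 0.0237) and with adjustment over stretch rows (-1.56, adjusted p = 0.0237). Fewer rows were tested in the filter and stretch settings. Why Actn3 passed in any of these settings was not tested. Over its other settings its adjusted p reached 0.272, without PTC2+ replicate 2. Leaving out 1 library gave log2 differences of -1.84 to -1.27 for Actn3, -0.68 to -0.33 for Mylk, -0.91 to -0.027 for Myh11 and 0.14 to 0.30 for Lpp, with the lone library taken to vary like the other population. Popdc2 entered only with no filter (log2 difference 0.21, limma adjusted p = 0.898). Among the other named genes, leaving out 1 library turned small differences, giving -0.52 to 0.13 for Srl, -0.057 to 0.43 for Ppp1ca, -0.10 to 0.34 for Nde1, -0.22 to 0.045 for Fopnl, -0.31 to 1.24 for 1110054M08Rik and -0.82 to 0.41 for Cox17.

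Against 345 rows that changed over the table, a pseudocount of 0.1 gave 214, no trend 200, and 1 library left out 0 to 42. Without a filter limma called 0, while 2596 had an unadjusted p under 0.05. In the stretches (79) they were 35 with no filter, 32 with no trend and 0 to 24 with 1 library left out. The cause was not tested.

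The labels tie each PTC2+ library to a PTC2− library by a number whose meaning they do not give. Deviations of same-numbered libraries correlated at 0.0229 over the table and 0.0917 over the stretch rows, and with 2 pairs this does not show whether the number marks a shared origin. A replicate block called 332 rows of the table and 98 of the stretches, and under it the adjusted p was 0.0599 for Actn3, 0.153 for Mylk, 0.455 for Lpp and 0.641 for Myh11.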
